A study of Homo sapiens with 4 samples.

Results

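Nonsense-mediated decay (NMD) is the surveillance pathway that degrades messenger RNAs whose translation stops too early, and its 9 core factors examined here are UPF1, UPF2, UPF3A, UPF3B, SMG1, SMG5, SMG6, SMG8 and SMG9. Their rows were found by gene symbol, with 1 row for each, giving 9 of the 57992 rows of the count table. All 9 passed the filter on low counts, with 651 to 6635 reads per library. Poly(A) RNA was sequenced from venetoclax-resistant MOLM13 cells, an acute myeloid leukaemia line made resistant to this BCL2 inhibitor. Doxycycline was given in both groups and switched on a hairpin against PRMT9 in 2 libraries (PRMT9 shRNA) or a control hairpin in 2 libraries (control shRNA). PRMT9 is a protein arginine methyltransferase whose best known substrate is the splicing factor SF3B2. The labels do not say whether the 2 libraries of a group are separate cultures or which hairpin sequence each carries, so SDs and p-values measure only the spread between these libraries.

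In the pathway, the RNA helicase UPF1 joins ribosomes that terminate at a premature stop codon. UPF2 links it to UPF3A or UPF3B, which bind the exon junction complex that splicing leaves on the RNA. The kinase SMG1, held in a complex with its regulators SMG8 and SMG9, then phosphorylates UPF1, and the phosphorylated protein recruits SMG6, an endonuclease that cuts the RNA, and SMG5, an adaptor through which decapping and deadenylation enzymes are brought in. Transcripts of several factors, among them UPF1, UPF2, UPF3B, SMG1, SMG5 and SMG6, are themselves degraded by the pathway in human cells, so that their levels are part of a feedback loop.

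Total counts were 30764403 and 33845172 in the PRMT9 shRNA libraries and 30329901 and 28592902 in the control shRNA libraries. PRMT9 itself had 81 and 78 reads in the PRMT9 shRNA libraries, against 398 and 406 in the control shRNA libraries, a log2 fold change of -2.48 (SE 0.12, edgeR adjusted p = 1.13e-11). All 12 listed myeloid markers were detected in tested amounts, and their summed level was 2666 and 2662 CPM (reads scaled by library size) in the PRMT9 shRNA libraries, against 1846 and 1840 CPM in the control shRNA libraries. Of these markers 11 rose and 1 fell, where 33.4% of all tested genes rose and 34.5% fell. Among those that rose, 2 rest on few reads. ANPEP had 61 and 57 reads in the PRMT9 shRNA libraries and 5 and 5 in the control shRNA libraries. CD14 had 20 and 21 reads in the PRMT9 shRNA libraries and 2 and 8 in the control shRNA libraries. Markers of other cell types were near 0 in every library, the largest sum being that of 8 epithelial and stromal genes, at 1.29 and 1.89 CPM in the PRMT9 shRNA libraries and 0.562 and 0.529 CPM in the control shRNA libraries. The 6 lymphoid genes summed to 0.679 and 0.737 CPM in the PRMT9 shRNA libraries and 0.562 and 0.706 CPM in the control shRNA libraries, and the 5 erythroid genes to at most 0.0589 CPM. EPCAM, KRT5, KRT19, COL3A1, CD2, HBB, HBA1 and ALAS2 had no read in any library. The part of the shift in myeloid markers in the results on decay factors was not tested. In bulk RNA, fewer cells of a type and less RNA per cell cannot be told apart.

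With the PRMT9 hairpin 6 of the 9 decay factors fell, 2 rose and 1 did not pass the test, and SMG5 was the one whose change was large beside the others. SMG5 RNA fell by 35.3%, whereas every other change was under 20% in size. A gene was called at a Benjamini-Hochberg adjusted p below 0.05 in edgeR's quasi-likelihood test over all 15193 genes tested. In that comparison 68.0% of all tested genes were called, with 33.4% rising and 34.5% falling, so that the 8 of 9 called factors (88.9%) stand beside a background in which most genes were called. The CPM of the groups did not overlap for any of the 9 factors, which held for 83.3% of all tested genes. Log2 fold changes had a median of -0.16 over the factors and 0.00 over all genes, and their median size was 0.24 over the factors and 0.40 over all genes. Against a fold of 1.2 in either direction, SMG5 alone of the 9 factors passed, whereas 44.9% of all tested genes did.

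The sequences before the start sites are shown for the factor with the large fall and for the 2 that rose, since these are the members the results turn on. Each line holds the 150 bases before the RefSeq start (GRCh38.p14, all on the minus strand and written 5′ to 3′ in the direction of transcription), at chr1:156282826-156282975 for SMG5, chr10:12043171-12043320 for UPF2 and chr17:2303786-2303935 for SMG6. Capitals mark the elements TCGCGAGA in SMG5, which end 73 and 22 bases before the start, the CCAAT boxes in UPF2, 91 and 61 bases before it, and the GC boxes in SMG6 (GGGCGG, or CCGCCC where it lies on the other strand), 117, 51, 41 and 4 bases before it.
SMG5: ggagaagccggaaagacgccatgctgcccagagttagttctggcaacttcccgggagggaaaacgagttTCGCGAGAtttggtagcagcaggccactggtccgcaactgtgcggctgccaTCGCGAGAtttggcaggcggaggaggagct
UPF2: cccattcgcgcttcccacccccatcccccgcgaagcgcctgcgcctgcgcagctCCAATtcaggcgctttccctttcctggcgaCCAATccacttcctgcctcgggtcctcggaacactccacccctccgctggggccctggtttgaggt
SMG6: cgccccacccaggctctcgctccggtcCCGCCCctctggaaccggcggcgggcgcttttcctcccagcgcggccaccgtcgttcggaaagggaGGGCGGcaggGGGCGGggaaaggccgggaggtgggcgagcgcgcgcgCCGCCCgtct

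RefSeq windows from 250 bases before to 50 bases after a start were at hand for all factors but SMG8, and 1 window was taken per gene, the one closest to the gene's 5′ end in the count table. GC boxes lay in 6 of these 8 windows and in 45.0% of all 35116 windows, and CCAAT in 4 of 8 and in 34.6% of all. The core of the NRF1 motif, GCATGCGC, lay in 2 of 8 (UPF3A and SMG9) and in 3.05% of all. TCGCGAGA, a motif added to the search after the sequences had been seen, lay in SMG5, UPF3A and UPF3B and in 1.15% of all windows. The other letters searched were CCGGAAG (in UPF3A; 10.3% of all), CACGTG (UPF2; 7.26%), GGCGGGAA (UPF3B; 3.16%), TGACGTCA (in no factor; 1.85%) and AAGATGGC (in no factor; 2.89%). The GC content of the 8 windows was 59.7% to 78.3%, against a median of 58.7% over all windows. Both strands were searched, and a GC box can overlap the E2F core GGCGGGAA. None of these 9 motifs lay in all the factors that fell.

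In the authors' RPKM, reads per kilobase of exon, UPF2 and SMG5 ranked highest of the factors and SMG6 lowest. The exon length counts every annotated exon of a gene, 25988 bases for SMG1 and 5906 for UPF2, and ranks between factors depend on it. Without division by length, SMG1 had 162.1 and 162.9 CPM in the PRMT9 shRNA libraries, where SMG5 had 115.0 and 113.4 CPM. In the control shRNA libraries SMG1 had 178.4 and 176.9 CPM, and SMG5 had 176.8 and 176.2 CPM. UPF2 averaged 33.6 ± 0.796 RPKM in the PRMT9 shRNA libraries and 28.6 ± 1.96 RPKM in the control shRNA libraries (SD, n = 2 each). SMG5 averaged 21.5 ± 0.184 RPKM with the PRMT9 hairpin and 33.3 ± 0.493 RPKM with the control hairpin (SD, n = 2 each). These 2 factors therefore changed places, with UPF2 first in both PRMT9 shRNA libraries and SMG5 first in both control shRNA libraries. UPF1 followed at 14.7 ± 0.0209 RPKM with the PRMT9 hairpin and 16.9 ± 0.495 RPKM with the control hairpin (SD, n = 2 each). Next came UPF3A, at 13.7 ± 0.0875 RPKM with the PRMT9 hairpin and 15.3 ± 0.331 RPKM with the control hairpin, and UPF3B, at 9.46 ± 0.637 RPKM with the PRMT9 hairpin and 8.81 ± 0.211 RPKM with the control hairpin (SD, n = 2 each). RPKM values of the kinase complex were lower. SMG1 stood at 6.24 ± 0.0306 with the PRMT9 hairpin and 6.84 ± 0.0785 RPKM with the control hairpin, and SMG9 at 4.34 ± 0.219 RPKM with the PRMT9 hairpin and 5.29 ± 0.0658 RPKM with the control hairpin (SD, n = 2 each). SMG8 averaged 5.81 ± 0.305 RPKM in the PRMT9 shRNA libraries and 6.94 ± 0.0572 RPKM in the control shRNA libraries (SD, n = 2 each). SMG6 had 3.15 ± 0.129 RPKM in the PRMT9 shRNA libraries and 2.64 ± 0.0315 RPKM in the control shRNA libraries (SD, n = 2 each). SMG1 and SMG8 lay close, with SMG1 the higher in both PRMT9 shRNA libraries and SMG8 the higher in both control shRNA libraries, where the values of SMG8 (6.98 and 6.90 RPKM) and SMG1 (6.78 and 6.89 RPKM) nearly met. UPF1 and UPF3A kept their order in every library. Among all 15193 tested genes the mean RPKM placed UPF2 at percentile 92.0 and SMG6 at percentile 43.1.

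**Figure D1:**
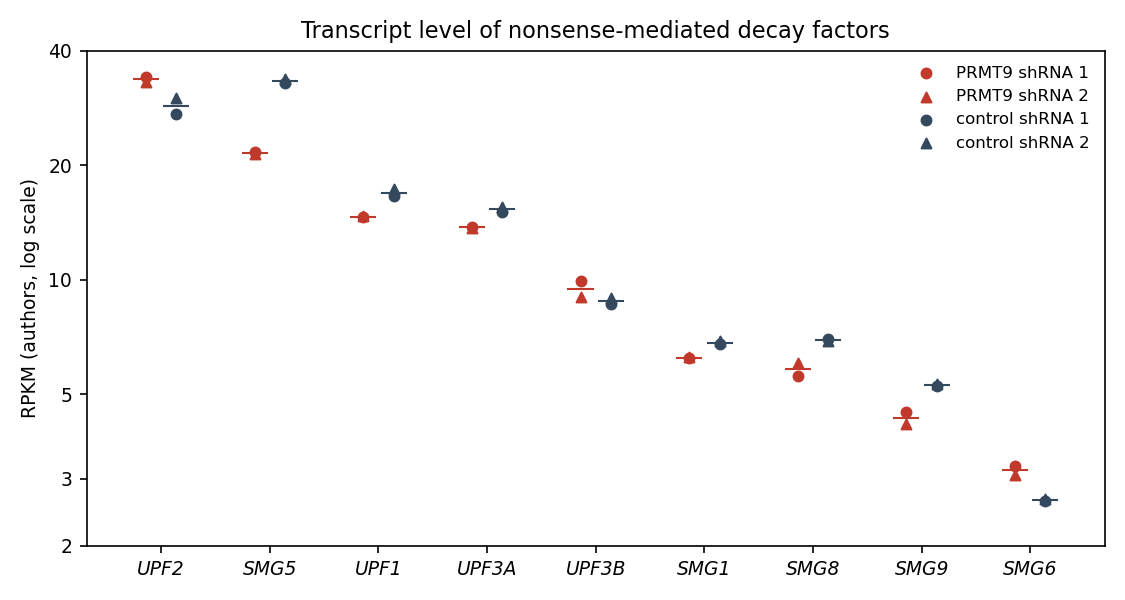
RPKM of each decay factor (authors' values, log scale) in every library, ordered by mean level; points are libraries and short lines are group means. UPF2 stands above SMG5 in the PRMT9 shRNA libraries (33.6 against 21.5 RPKM) and below it in the control shRNA libraries (28.6 against 33.3 RPKM).

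SMG5, on chromosome 1 (156249224 to 156282825, minus strand, GRCh38, like all gene positions here), encodes an adaptor that binds phosphorylated UPF1. It had 115.0 and 113.4 CPM in the PRMT9 shRNA libraries, against 176.8 and 176.2 CPM in the control shRNA libraries. The libraries of each group nearly coincided and the groups lay far apart. The log2 fold change was -0.63 (SE 0.03, 95% confidence interval -0.68 to -0.57, edgeR adjusted p = 2.08e-12), and it also passed the test against a fold of 1.2 (adjusted p = 3.33e-10). None of its 50-base windows occurs in another gene and no other gene overlaps its exons. With offsets for GC content and exon length, an alternative chosen after seeing the data, its log2 fold change was -0.82 and still called. By the size of its change SMG5 stood at percentile 69.1 of all tested genes, so that changes of this size or larger were common in this comparison.

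SMG6 (chromosome 17, 2059839 to 2303771, minus strand), the endonuclease that is the other effector of phosphorylated UPF1, moved the other way. It had 34.3 and 32.3 CPM in the PRMT9 shRNA libraries, against 27.9 and 27.7 CPM in the control shRNA libraries, so that both PRMT9 shRNA libraries were higher. The log2 fold change was 0.26 (SE 0.05, 95% confidence interval 0.15 to 0.37, edgeR adjusted p = 3.95e-04). The count of SMG6 is uncertain, since another gene overlaps it. HIC1 lies on the opposite strand over 2419 bases of SMG6 exon, 24.1% of the SMG6 windows of 50 bases also occur in other genes, and the use of strand in the counting is not given in the sources used here. HIC1, which encodes a zinc finger repressor, had 181 and 225 reads in the PRMT9 shRNA libraries and 78 and 77 reads in the control shRNA libraries (log2 fold change 1.24, SE 0.15, edgeR adjusted p = 8.98e-07). Whether HIC1 reads entered the SMG6 counts was not tested. With the GC and length offsets the rise of SMG6 was 0.09 and no longer called (adjusted p = 0.172).

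UPF1 (chromosome 19, 18831938 to 18868236, plus strand), the helicase at the centre of the pathway, had 126.4 and 126.4 CPM in the PRMT9 shRNA libraries, against 144.3 and 146.7 CPM in the control shRNA libraries. It was lower in both PRMT9 shRNA libraries, with a log2 fold change of -0.20 (SE 0.03, 95% confidence interval -0.26 to -0.15, edgeR adjusted p = 4.44e-06). The size of this fall depended on the treatment of scale, at -0.11 with upper-quartile scaling and -0.44 with the GC and length offsets, and it was called in both.

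UPF2 (chromosome 10, 11920022 to 12043170, minus strand), the bridge between UPF1 and UPF3 proteins, had 202.6 and 195.5 CPM in the PRMT9 shRNA libraries, against 162.7 and 174.9 CPM in the control shRNA libraries. Both PRMT9 shRNA values were higher, although the control shRNA libraries lay further apart, in CPM, than for any other factor. The log2 fold change was 0.24 (SE 0.03, 95% confidence interval 0.17 to 0.31, edgeR adjusted p = 5.05e-06), a rise of 17.9%. UPF2 was the factor that rose with no overlapping gene and no window shared with another gene, and it was called under every alternative run except the test against a fold of 1.2 (adjusted p = 0.723).

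UPF3A and UPF3B, paralogs that bind the exon junction complex, were called differently, as UPF3A fell and UPF3B did not pass the test. Whether their changes differ from each other was not tested. UPF3A (chromosome 13, 114281584 to 114305817, plus strand) had 79.8 and 78.9 CPM in the PRMT9 shRNA libraries, against 88.1 and 88.7 CPM in the control shRNA libraries, and its log2 fold change was -0.16 (SE 0.03, 95% confidence interval -0.22 to -0.09, edgeR adjusted p = 4.55e-04). It no longer passed with upper-quartile scaling (-0.07, adjusted p = 0.0795). UPF3A also shares 17.2% of its 50-base windows with other genes, mostly its 3 annotated copies UPF3AP1, UPF3AP2 and UPF3AP3, which together had 25 and 28 reads with the PRMT9 hairpin and 17 and 23 with the control hairpin. UPF3B (chromosome X, 119805311 to 119852998, minus strand), held to be the more active partner in human cells, had 30.6 and 27.8 CPM in the PRMT9 shRNA libraries, against 27.0 and 27.3 CPM in the control shRNA libraries. Its log2 fold change of 0.10 (SE 0.06, 95% confidence interval -0.02 to 0.23) did not pass (edgeR adjusted p = 0.133). That interval still allows a rise of 1.17-fold. UPF3B passed with upper-quartile scaling (0.19, adjusted p = 0.00900), at a log2 fold change of 0.13 with genes kept from 1 CPM upwards (adjusted p = 0.0489) and without PRMT9 shRNA replicate 2 (0.17, adjusted p = 0.0356), whereas without PRMT9 shRNA replicate 1 it was 0.03 (adjusted p = 0.683).

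Of the kinase complex, all 3 members fell by modest amounts, where 34.5% of all tested genes fell. By the size of their changes SMG1, SMG8 and SMG9 stood at percentiles 17.1, 33.1 and 36.9 of all tested genes. SMG1 (chromosome 16, 18804853 to 18926454, minus strand), the kinase, had 162.1 and 162.9 CPM in the PRMT9 shRNA libraries, against 178.4 and 176.9 CPM in the control shRNA libraries (log2 fold change -0.13, SE 0.03, 95% confidence interval -0.18 to -0.08, edgeR adjusted p = 2.40e-04). The groups were apart, but this was the smallest of the called changes, and it was lost with upper-quartile scaling (-0.04, adjusted p = 0.164) and was -0.07 with the GC and length offsets (adjusted p = 0.0257). SMG1 shares 15.0% of its windows with other genes, chiefly its partial copies on the same chromosome. The 7 copies SMG1P1 to SMG1P7 together had 599 and 653 reads in the PRMT9 shRNA libraries, against 800 and 759 in the control shRNA libraries, which is 11.9% and 11.8% of the SMG1 reads in the PRMT9 shRNA libraries and 14.8% and 15.1% in the control shRNA libraries. SMG1P2, SMG1P3 and SMG1P7 fell, the last by 0.52 (SE 0.10, edgeR adjusted p = 2.22e-04), and the other 4 did not pass. Summed with its copies, SMG1 had a log2 difference of -0.17 between the groups.

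SMG8 (chromosome 17, 59209400 to 59215247, plus strand), which restrains SMG1, had 21.1 and 22.6 CPM in the PRMT9 shRNA libraries, against 26.5 and 25.6 CPM in the control shRNA libraries (log2 fold change -0.25, SE 0.06, 95% confidence interval -0.38 to -0.12, edgeR adjusted p = 0.00145). SMG9 (chromosome 19, 43727992 to 43754990, minus strand), its partner in the complex, had 35.7 and 33.2 CPM with the PRMT9 hairpin, against 42.1 and 41.8 CPM with the control hairpin (log2 fold change -0.28, SE 0.05, 95% confidence interval -0.39 to -0.18, edgeR adjusted p = 7.26e-05). Both were lower in each PRMT9 shRNA library than in each control shRNA library. Another annotated gene on the same strand, AC099850.2, shares 9.83% of the SMG8 windows and had no read in any library. SMG8 was -0.16 with upper-quartile scaling, and SMG9 was -0.52 with the GC and length offsets, and both stayed called there.

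**Figure D2:**
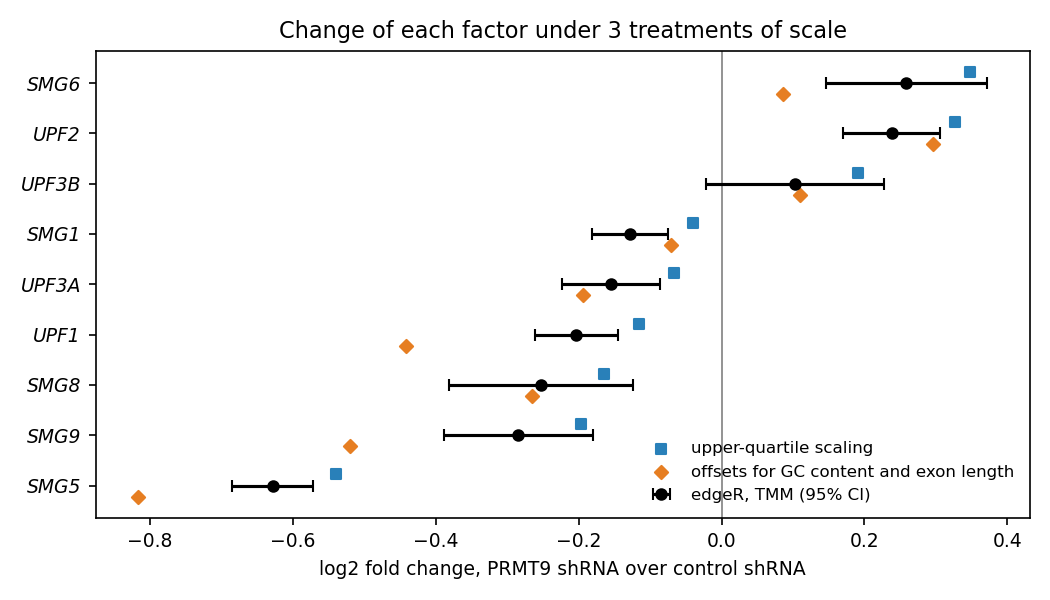
Log2 fold change (PRMT9 shRNA over control shRNA) of each factor, with the 95% confidence interval of the edgeR test on TMM-scaled counts (black) and the values under upper-quartile scaling (squares) and under offsets for GC content and exon length (diamonds). SMG5 is lowest under each (-0.63, -0.54 and -0.82), whereas SMG1 comes within 0.04 of 0 and SMG6 within 0.09 of 0 under 1 of the other settings.

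Ratios between factors within a library do not depend on a scaling factor of the whole library, although they do depend on corrections that differ between genes, and they were compared for 5 pairs. The log2 ratio of SMG6 to SMG5 counts was -1.74 and -1.81 in the PRMT9 shRNA libraries, against -2.66 and -2.67 in the control shRNA libraries. In RPKM there were 0.150 and 0.143 SMG6 per SMG5 with the PRMT9 hairpin, against 0.0794 and 0.0791 with the control hairpin, a 1.85-fold higher ratio, to which SMG5 brought a log2 change of -0.63 and SMG6 one of 0.26. UPF2 to UPF1 was 0.68 and 0.63 in the PRMT9 shRNA libraries, against 0.17 and 0.25 in the control shRNA libraries, and in RPKM it was 2.33 and 2.25 with the PRMT9 hairpin and 1.64 and 1.74 with the control hairpin. UPF3A to UPF3B was 1.38 and 1.51 in the PRMT9 shRNA libraries, against 1.71 and 1.70 in the control shRNA libraries, so that UPF3A exceeded UPF3B everywhere but by less with the PRMT9 hairpin. SMG1 to UPF1 differed by 0.07 between groups (0.36 and 0.37 in the PRMT9 shRNA libraries, 0.31 and 0.27 in the control shRNA libraries). The groups were apart in these 4 ratios and overlapped for SMG8 to SMG9 (-0.76 and -0.55 in the PRMT9 shRNA libraries, -0.67 and -0.71 in the control shRNA libraries), the regulators of SMG1. Groups that do not overlap were common, as this held for the CPM of 83.3% of all tested genes. The share over other pairs of genes was not computed. With 2 libraries against 2 an exact permutation test cannot reach p = 0.05, so the ratios are described without a test. With the GC and length offsets the difference in log2 fold change between the partners was 0.37 for SMG1 to UPF1, 0.74 for UPF2 to UPF1 and 0.26 for SMG8 to SMG9, against 0.07, 0.44 and 0.03 without them. For UPF3A to UPF3B this difference was -0.30 with the offsets and -0.26 without. For SMG6 to SMG5 it was 0.90 with the offsets and 0.89 without. Its parts moved, as SMG5 went to -0.82 with the offsets and SMG6 to 0.09, which was not called. Whether HIC1 reads entered the SMG6 counts in this ratio was not tested.

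**Figure D3:**
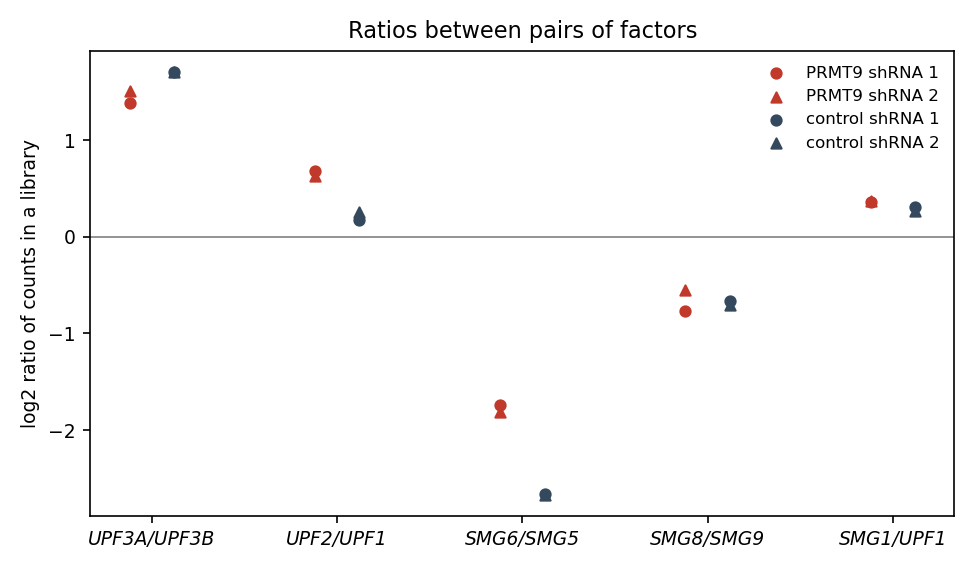
Log2 ratio of the counts of 2 factors within each library, for 5 pairs. SMG6/SMG5 lies at -1.74 and -1.81 in the PRMT9 shRNA libraries and at -2.66 and -2.67 in the control shRNA libraries, while the points of SMG8/SMG9 overlap.

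As shares of the summed RPKM of the 9 factors, UPF2 made up 30.1% and 29.7% in the PRMT9 shRNA libraries, against 22.3% and 23.6% in the control shRNA libraries. SMG5 made up 19.0% and 19.2% with the PRMT9 hairpin, against 27.0% and 26.4% with the control hairpin. The sum itself was 113.7 and 111.3 RPKM in the PRMT9 shRNA libraries, against 122.1 and 127.2 RPKM in the control shRNA libraries.

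The proteins that work next to these factors were examined as lists, whose counts stand beside the 68.0% of all tested genes that were called, 33.4% rising and 34.5% falling. Of 7 accessory NMD factors 5 fell and 1 rose (median log2 fold change -0.33). Changes in these lists are on the log2 scale, PRMT9 shRNA over control shRNA. ICE1, which aids the loading of UPF3B on exon junctions, fell by 0.76 and PNRC2, a decapping adaptor, rose by 0.27. All 11 exon junction complex genes were called, 8 lower and 3 higher (median -0.31). MAGOHB, a core subunit gene, fell by 1.02, PNN, a splicing protein at its periphery, fell by 0.48, and PYM1, which takes the complex off the RNA, rose by 0.29. Among genes of termination and of the ends of the mRNA, 7 of 11 tested fell and 3 rose (median -0.38). GSPT1, the release factor that contacts UPF1, fell by 0.83 and the poly(A)-binding protein gene PABPC1 by 0.15. STAU1, which uses UPF1 in another decay route, rose by 0.28. That list also holds STAU2, which rose by 0.08. With STAU1 and STAU2 in it, its counts and median are not those of termination and mRNA ends alone.

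The families of UPF1 and SMG1 held larger single changes than either member, and 87.5% and 90.0% of their tested genes were called, beside 68.0% of all tested genes (33.4% rising, 34.5% falling). Of 8 tested helicase genes of the UPF1-like family 3 rose and 4 fell (median -0.15), with HELZ2 at 75.0 ± 0.911 CPM in the PRMT9 shRNA libraries and 23.8 ± 0.630 CPM in the control shRNA libraries (SD, n = 2 each; log2 fold change 1.66, edgeR adjusted p = 6.59e-15). MOV10 rose by 0.60 and DNA2, a replication nuclease and helicase, fell by 1.13, against -0.20 for UPF1. In the family of phosphatidylinositol 3-kinase-related kinases, to which SMG1 belongs, and its assembly factors, 8 of 10 fell and 1 rose (median -0.50). ATR, the kinase of replication stress, fell by 1.05 and PRKDC by 0.69, ATM rose by 0.21, and SMG1 had -0.13. Whether the members differ from these relatives was not tested.

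Downstream enzymes of decay were mixed. For decapping and 5′ to 3′ decay 6 of 11 fell and 3 rose (median -0.18), among them LSM1 (-0.67), the nuclease XRN2 (-0.30) and DCP1B (0.66). The nuclease XRN1 of the same list was not called (0.06, edgeR adjusted p = 0.205), and the decapping enzyme gene DCP2 fell (-0.57). Of 16 deadenylation genes 5 fell and 4 rose (median -0.02), with CNOT9 at -0.66, PAN2 at 0.50 and the scaffold CNOT1 not called (-0.02, edgeR adjusted p = 0.534). The 17 genes listed with the exosome and the SKI complex were all called, 14 lower and 3 higher (median -0.49), with DIS3L at -0.72, EXOSC8 at -0.51 and TTC37 (SKIC3) at 0.39. That list also holds HBS1L (-0.56) and PELO (-0.49), so its counts and median are not those of the 2 complexes alone. Against the 68.0% of all tested genes that were called, the shares were 88.9% for the 9 factors, 90.9% for the termination list, 90.0% for the kinases, 87.5% for the helicases, 85.7% for the accessory factors, 81.8% for decapping, 71.4% for the reported NMD targets and 56.2% for deadenylation, and every tested gene of the exosome and exon junction lists was called.

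Genes with transcripts reported to be degraded by NMD did not move in 1 direction. Of 21 tested, 8 rose, 7 fell and 6 did not pass (median 0.06), and the 71.4% called lies near the 68.0% of all tested genes (33.4% rising, 34.5% falling). With upper-quartile scaling 12 rose and 6 fell, where 5933 of all 15193 tested genes rose and 4443 fell. With the GC and length offsets 6 rose and 8 fell, where 4379 of all tested genes rose and 5948 fell. GAS5, a host gene of small nucleolar RNAs whose spliced transcript is a textbook target, had 573.8 CPM with the PRMT9 hairpin and 478.2 CPM with the control hairpin, and EPB41L4A-AS1 and SNHG8 rose as well. SNHG1, SNHG12 and SNHG16 fell, and ZFAS1, SNHG5, SNHG15 and TBL2 were among the 6 that did not pass. PPP1R15A rose by 1.59 and ASNS fell by 1.58, and ATF4, the most abundant of the list per kilobase, fell by 0.33. PPP1R15A and ASNS are also transcribed in response to ATF4, and gene-level counts do not separate transcripts with a premature stop from those without.

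**Figure D4:**
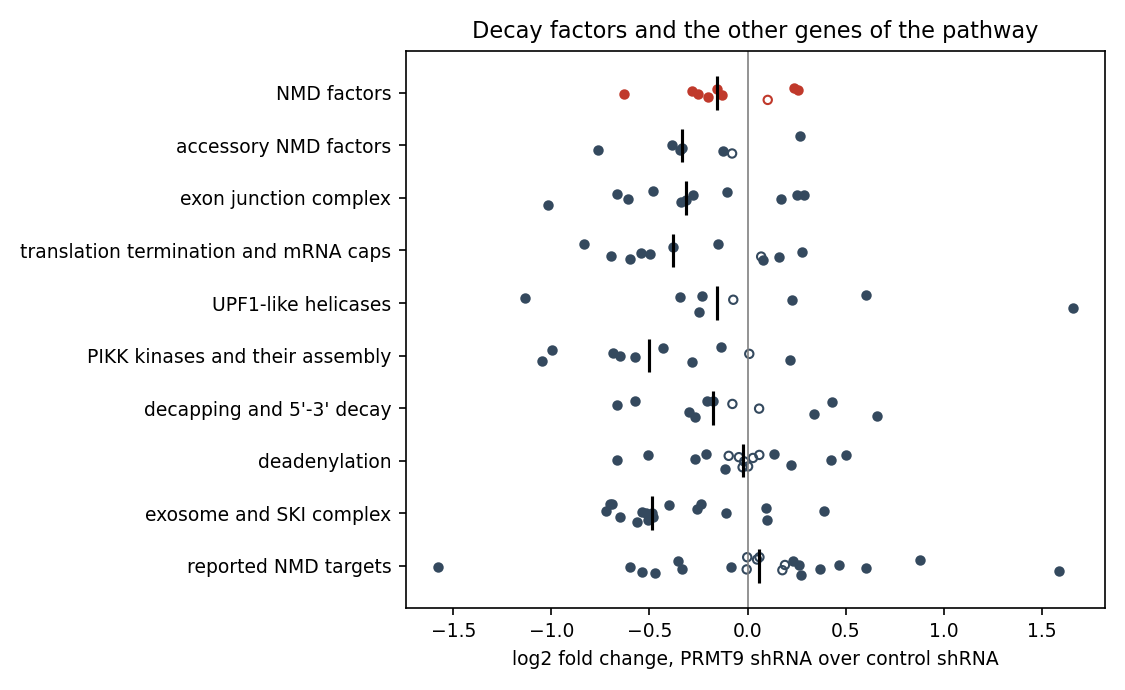
Log2 fold change (PRMT9 shRNA over control shRNA) of every tested gene in the NMD factor list (red) and 9 related lists; filled points were called at an adjusted p below 0.05, open points were not, and black ticks are list medians. The factors span -0.63 to 0.26, and the kinase list and the exosome list have the lowest medians (-0.50 and -0.49).

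The genes most like SMG5 over the 4 libraries, by the Euclidean distance of centred log2 CPM among 8770 protein-coding genes with mean levels from 10 CPM upwards, were ALG6, CLTC and LRP6, at distances of 0.00892, 0.0106 and 0.0117. CLTC had 344.1 and 338.2 CPM in the PRMT9 shRNA libraries, against 526.3 and 529.5 CPM in the control shRNA libraries. ALG6 had 16.5 and 16.2 CPM in the PRMT9 shRNA libraries, against 25.5 and 25.4 CPM in the control shRNA libraries, and LRP6 had 17.6 and 17.5 CPM with the PRMT9 hairpin, against 27.0 and 26.9 CPM with the control hairpin. With 4 libraries such likeness says little more than that the fold is alike.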

How the data were processed

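Raw counts and RPKM of each Ensembl gene were deposited by the authors for the 4 libraries, on GRCh38. The submitters' processing notes name STAR 2.7.2a, SAMtools 1.10 and Trimmomatic 0.39 without their roles. Which program counted the reads, and whether by strand, is not given in the sources used here. The deposited RPKM equal the count per exon length and library total, times 1 factor per library. Here, filterByExpr of edgeR 4.0.16 (minimum count 10, R 4.3.3) kept 15193 of 57992 genes with 99.91% of the counts, and the groups were compared with edgeR's quasi-likelihood test (TMM scaling, robust), adjusted over all of them. The test was checked on simulated data in which a small part of the genes changed, evenly up and down. In these data 68.0% of tested genes were called, so that check does not cover the choice of scaling. Log2 fold changes are PRMT9 shRNA over control shRNA. CPM are scaled by TMM, and means are given ± SD. The members and lists were chosen with earlier results of these data known. Named are all 9 factors, PRMT9, copies of SMG1 and UPF3A, the 3 genes most like the factor with the largest change, and of each list the largest called rise and fall and the highest mean RPKM. HIC1 and other list members named were chosen after their values were seen. Alternatives used DESeq2 1.42.0, limma 3.58.1, other scalings, filters, thresholds and left-out libraries. GC content came from GENCODE 29 transcripts.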

Additional observations from a re-analysis of the deposited data

How the results depend on the processing

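Of 18 alternatives run, 17 gave a fold change for each factor, and no factor changed direction in any of them. The test against a fold of 1.2 keeps the fold changes of the main fit, so it could not reverse a direction. Against a fold of 1.2, 0 factors rose, 1 fell and 6822 genes were called in all. With offsets for GC content and exon length, chosen after seeing the data, 1 factor rose, the median of all genes moved to -0.08 and 4379 genes rose instead of 5078. Leaving out each library in turn gave 2 to 3 rising and 6 to 6 falling factors, and 9301 to 9889 genes changed. A fit that leaves 1 library in a group assumes that it varies like the others. With upper-quartile scaling, which moved the median of all genes to 0.09, 3 factors rose and 4 fell. Of all tested genes 5933 rose and 4443 fell under that scaling, so that 57.2% of the calls were rises, against 49.2% in the main fit. DESeq2 called 2 factors higher, 6 lower and 8350 genes in all. With the replicate number as a block, 2 factors rose, 6 fell and 10307 genes changed, and no call on a factor differed. The labels give no meaning to these numbers, and same-numbered libraries did not deviate together (r = -0.03 over 15193 genes, which are not independent). The lists were recomputed under the same alternatives. Outside the test against a fold of 1.2, the pathway counts that moved by over 1.5 times were those of rising genes, at 7 instead of 4 for deadenylation and 2 instead of 1 for the kinases with upper-quartile scaling, and at 1 instead of 3 for the exosome in limma on log2 RPKM. Of the 9 factors, SMG6 (845 and 786 control reads), SMG8 and UPF3B rest on the fewest reads and have the widest intervals. Intervals cover the spread between these libraries only.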
